A study of Mus musculus with 5 samples.

Results

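The 40 genes described here belong to 2 linked stress programmes, 20 that answer to amino acid shortage and the transcription factor ATF4, and 20 of the unfolded protein response of the endoplasmic reticulum (ER). They were chosen by name, with earlier results of these data known. Each gene was represented by the probe set with the highest mean of log2(intensity + 16). A probe set of their own was annotated for 39 of the 40, of 18193 genes named on the array. Pycr1, a proline synthesis gene, had none and its expression was not analysed here. Of the 39, 38 reached an intensity of 25.1, the median of all values, on at least 1 array and were tested, among 12609 genes in all. The hormone gene Fgf21 did not, with intensities between 4.2 and 18.2, which leaves 18 tested amino acid stress genes and 20 tested ER genes.

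RNA came from NT2.5, a mammary carcinoma line established from neu-transgenic mice, and from sub-lines of it. The parental cells are labelled as metastasizing to bone, liver and lung, the bone sub-line to bone, and the liver sub-line to liver. A single array was run for each of 5 samples: the parental cells, the early and final passages of the bone sub-line (passages 3 and 6, here "bone 3" and "bone 6"), and those of the liver sub-line (passages 1 and 3, here "liver 1" and "liver 3"). No drug, starvation or other treatment is named for any sample, each sub-line is 1 lineage, and the labels do not say whether a passage was in culture or in mice. Because no passage was measured more than once, tests used the passages of a sub-line as its replicates (n = 2, and n = 1 for the parental cells), and a pair of single arrays has values but no test.

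Cells that run short of amino acids, or whose ER fills with unfolded protein, phosphorylate the translation factor eIF2-alpha. General translation then slows while translation of Atf4 mRNA increases, and ATF4 switches on genes for amino acid synthesis and import, tRNA charging and stress signalling. The unfolded protein response has 2 further arms, in which the ER membrane proteins ATF6 and IRE1-alpha (encoded by Ern1) produce the active transcription factors cleaved ATF6 and spliced XBP1, which switch on chaperones, folding enzymes and ER-associated degradation. Both programmes are known to be active in many carcinomas. Arrays read mRNA only, so phosphorylation, ATF6 cleavage and Xbp1 splicing were not measured.

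The 2 programmes are known by different promoter elements, and these are shown as background to the 2 gene groups. ATF4 binds the C/EBP-ATF response element (CARE), searched here as TGATGNAA. ATF6 binds the ER stress element (ERSE), searched as CCAAT and CCACG with 9 bases of any kind between them, and a related short element, ERSE-II, searched as ATTGG and CCACG with 1 base between them. ERSE and ERSE-II share CCACG, and no match here counted for both. Both strands were searched in windows of 300 bases, 250 before to 50 after each start site, in RefSeq sequence of build GRCm38.p6. Windows existed for 36 of the 40 genes, all but Cth, Atf6, Hyou1 and Manf. Capitals mark the match in the sequences that follow, each read 5′ to 3′ on the strand of the gene, and where the element lies on the other strand the capitals are its reverse complement.
Asns CARE, chr6:7693210-7693252, - strand: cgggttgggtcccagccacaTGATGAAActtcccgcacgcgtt
Chac1 CARE, chr2:119351029-119351076, + strand: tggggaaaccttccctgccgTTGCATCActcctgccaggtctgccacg
Nupr1 CARE, chr7:126625553-126625600, - strand: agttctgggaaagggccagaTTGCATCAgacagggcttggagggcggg
Trib3 CARE, chr2:152344029-152344056, - strand: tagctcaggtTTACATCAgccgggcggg
Herpud1 CARE, chr8:94386297-94386344, + strand: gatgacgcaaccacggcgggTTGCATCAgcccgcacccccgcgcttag
Herpud1 ERSE-II, chr8:94386357-94386407, + strand: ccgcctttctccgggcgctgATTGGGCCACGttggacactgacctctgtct
Hspa5 ERSE, chr2:34772005-34772063, + strand: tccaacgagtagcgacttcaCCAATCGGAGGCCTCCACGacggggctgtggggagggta
Dnajc3 ERSE, chr14:118937807-118937865, + strand: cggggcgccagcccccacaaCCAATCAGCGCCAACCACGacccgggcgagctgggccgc
Pdia6 ERSE, chr12:17266471-17266529, + strand: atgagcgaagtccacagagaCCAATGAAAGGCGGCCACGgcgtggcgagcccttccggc
Calr ERSE, chr8:84847055-84847113, - strand: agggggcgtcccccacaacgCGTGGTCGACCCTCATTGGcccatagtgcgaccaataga
Creld2 ERSE, chr15:88819500-88819558, + strand: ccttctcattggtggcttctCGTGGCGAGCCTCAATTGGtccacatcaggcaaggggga
Hsp90b1 ERSE, chr10:86705618-86705676, - strand: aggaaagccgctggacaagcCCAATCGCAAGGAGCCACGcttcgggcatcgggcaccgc
Hsp90b1 ERSE, chr10:86705513-86705571, - strand: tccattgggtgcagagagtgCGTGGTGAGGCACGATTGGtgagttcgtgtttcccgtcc

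The CARE letters were present for 6 of 19 amino acid stress genes with a window (31.6%: Asns, Chac1, Trib3 and Nupr1 above, with Fgf21 and Pycr1) and for 1 of 17 ER genes (5.88%, Herpud1), against 3.97% of all 32851 windows. ERSE letters were present for 6 of 17 ER genes (35.3%) and for 0 of 19 amino acid stress genes, against 0.119% of all windows. Herpud1, whose product takes part in ER-associated degradation, was the only one of the 36 genes to hold 2 kinds of element, CARE and ERSE-II, the latter in 0.0365% of all windows. The Trib3 match lies after the start site, 14 bases into the transcript. A match is a string of letters, not a bound site, and factor binding was not measured. The genes were chosen as members of these programmes, so the matches say nothing about the array values.

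**Figure D1:**
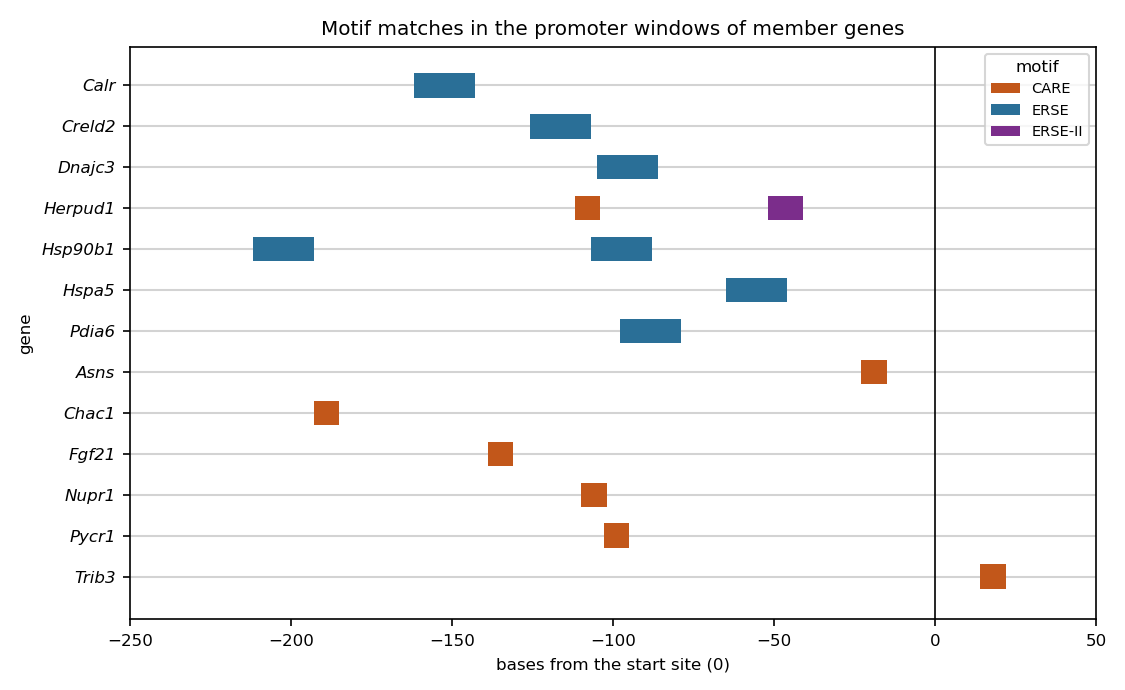
Position of each motif match (coloured bars, bases from the start site at 0) in the 300-base windows of the member genes that hold one. ERSE matches sit in windows of 6 ER genes and CARE matches in windows of 6 amino acid stress genes, and Herpud1 holds CARE and ERSE-II.

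All 5 arrays had been scaled to the same trimmed mean of 150. The ratio of 5' to 3' intensity, a sign of RNA integrity, was 0.842 to 0.927 for actin and 1.24 to 1.33 for Gapdh, with liver 1 at the top of the Gapdh range. Of 10 mammary epithelial markers 9 were above the filter level on every array, with summed intensities of 24031 to 28454 (Krt19 was at 1.5 to 3.3). Hepatocyte markers summed to 54.8 to 108.5, with albumin (Alb) at 2.4 to 15.8, and osteoblast markers to 106 to 149. Plasma cell markers, a cell type rich in the ER programme, summed to 2233 to 4594, nearly all of it Sdc1, which epithelial cells also express. Summed macrophage markers were 541 in the parental cells, 734 and 1189.7 in bone 3 and bone 6, and 812 and 771 in liver 1 and liver 3.

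The amino acid stress genes separated the first liver passage from the last. All 18 tested were lower in liver 3 than in liver 1, where 47.5% of all genes were lower, and 8 of the 18 were at least 2-fold lower, against 1.13% of all genes. Their median difference was -0.98 on the log2(intensity + 16) scale, against 0.022 for all genes tested and 0.14 for the 20 ER genes. Of those 20, 12 were higher and 8 lower (52.3% of all genes were higher), and 0 reached 2-fold by the chosen probe sets. A second probe set of Herpud1 (-1.55) and a further one of Atf6 (-1.04) were more than 2-fold lower in liver 3. Liver 1 gave the highest of the 5 intensities for 13 of the 18 (background 24.8%), and liver 3 gave the lowest for 10 (background 16.3%). Parental cells were highest for 4 of the other 5 genes and bone 3 for Nupr1.

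Among stress signalling genes, Trib3, a pseudokinase that is induced by ATF4 and dampens it, gave intensities of 1109.5 in the parental cells, 877 and 385 in bone 3 and bone 6, and 1923 and 403 in liver 1 and liver 3. Its value in liver 3 was 4.63-fold below that in liver 1, the widest gap among the tested members (folds are taken on the log2(intensity + 16) scale). Chac1, an enzyme that degrades glutathione, read 997 (parental), 619 (bone 3), 386 (bone 6), 1539.9 (liver 1) and 524 (liver 3). Ddit3, which encodes the pro-apoptotic factor CHOP, stood at 139 in the parental cells, 149 and 83 in bone 3 and bone 6, and 265 and 103 in liver 1 and liver 3. These 3 genes shared an order in which liver 1 was highest, bone 6 lowest and liver 3 next to lowest. Liver 3 was 2.88-fold below liver 1 for Chac1 and 2.37-fold for Ddit3.

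Ppp1r15a encodes GADD34, the phosphatase subunit that reverses eIF2-alpha phosphorylation, and its intensities were 194 (parental), 213 (bone 3), 138 (bone 6), 365 (liver 1) and 134 (liver 3). Sesn2, a leucine sensor that restrains mTORC1, read 314 in the parental cells, 262 and 192 in bone 3 and bone 6, and 390.0 and 245 in liver 1 and liver 3. Both were highest in liver 1, by 2.54-fold over liver 3 for Ppp1r15a, while Sesn2 differed by -0.64 on the log2 scale. Stc2, a secreted glycoprotein induced by ER and nutrient stress, was measured at 1264 in the parental cells, 674 and 443 in bone 3 and bone 6, and 1582 and 517 in liver 1 and liver 3. Of the sub-line arrays only liver 1 was above the parental value for Stc2, and liver 3 was 3.00-fold below liver 1.

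**Figure D2:**
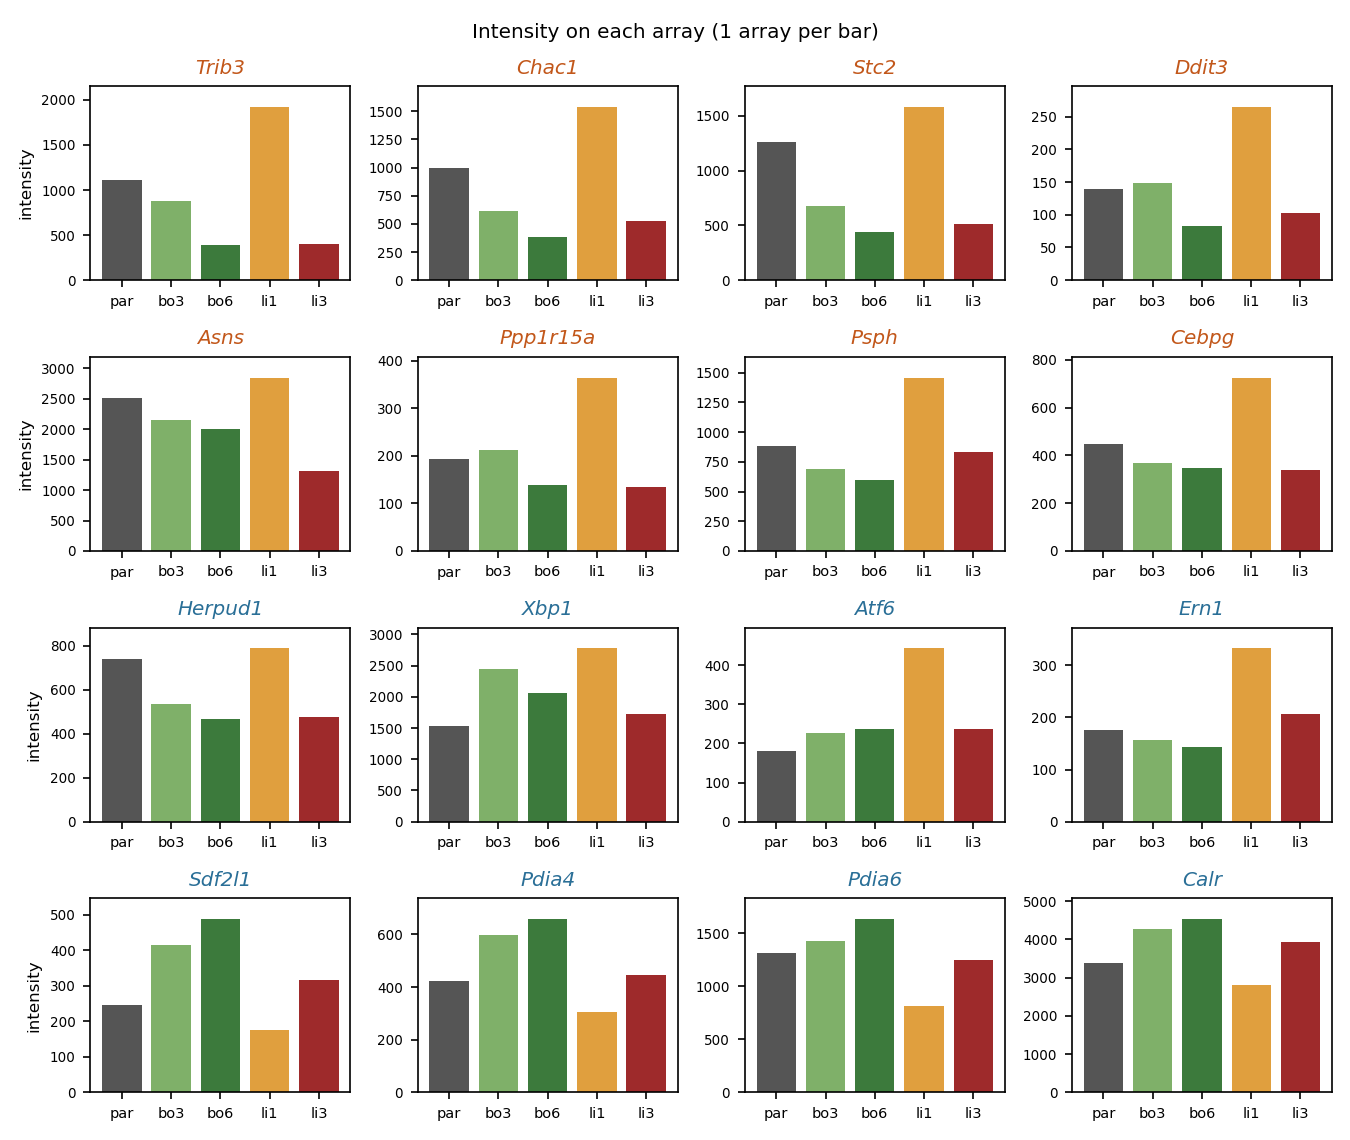
Intensity (linear scale from 0, 1 bar per array) of 16 genes on the parental (par), bone 3 (bo3), bone 6 (bo6), liver 1 (li1) and liver 3 (li3) arrays; orange names are amino acid stress genes and blue names ER genes. Liver 1 is the tallest bar for the 8 amino acid stress genes shown, for example 1923 for Trib3, and the shortest for Sdf2l1, Pdia4, Pdia6 and Calr.

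Among the transcription factors, Atf4 mRNA did not have the order of most of its targets. Atf4 read 2672 in the parental cells, 1841 and 2108 in bone 3 and bone 6, and 2380.5 and 1516 in liver 1 and liver 3, with the parental cells highest. Cebpb, a partner that heterodimerizes with ATF4, was also highest in the parental cells, narrowly over liver 1, at 4718 (parental), 4628 (bone 3), 3889.9 (bone 6), 4709.8 (liver 1) and 3473 (liver 3). For both genes all 4 sub-line arrays were below the parental value. A second Cebpb probe set had bone 3 narrowly above the parental cells, at 2078 against 2071. Cebpg, another partner of ATF4, followed the liver 1 order instead, at 449 in the parental cells, 367 and 346 in bone 3 and bone 6, and 726 and 337 in liver 1 and liver 3, and was 2.1-fold lower in liver 3 than in liver 1. Nupr1, a small stress-induced chromatin protein, read 277 (parental), 546 (bone 3), 375 (bone 6), 488 (liver 1) and 283 (liver 3). All 4 sub-line arrays were above the parental value for Nupr1, narrowly so for liver 3. A second Nupr1 probe set had liver 3 below the parental cells, at 213.5 against 242.8.

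Asparagine synthetase (Asns), a standard readout of amino acid shortage, gave 2519.9 in the parental cells, 2158 and 2008 in bone 3 and bone 6, and 2851 and 1307 in liver 1 and liver 3, so that liver 3 was 2.17-fold below liver 1. The serine pathway was split. Phgdh, its first enzyme, read 1181 (parental), 1349 (bone 3), 1229 (bone 6), 2100.2 (liver 1) and 1566 (liver 3) and Psph, its last, read 885 in the parental cells, 693 and 599 in bone 3 and bone 6, and 1459.9 and 833 in liver 1 and liver 3. For both, both liver arrays were above both bone arrays, which held for 2 of the 18 genes (25.9% of all genes). Psat1, the enzyme between them, had the opposite order of lines, at 3352 (parental), 3004 (bone 3), 3148 (bone 6), 2859.8 (liver 1) and 1806 (liver 3), and was the only amino acid stress gene with both bone arrays above both liver arrays.

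The mitochondrial one-carbon enzymes Shmt2 and Mthfd2, which use serine, were both lowest in liver 3. Shmt2 read 1689.8 in the parental cells, 1108 and 1277 in bone 3 and bone 6, and 1599.6 and 857 in liver 1 and liver 3, and Mthfd2 read 1096 (parental), 854 (bone 3), 986 (bone 6), 1217 (liver 1) and 612 (liver 3). Aldh18a1, which starts proline synthesis, gave 1900.0 in the parental cells, 1329 and 1374 in bone 3 and bone 6, and 2186 and 1090.1 in liver 1 and liver 3. By the chosen probe sets, the 3 genes were -0.89, -0.97 and -0.99 apart between liver 3 and liver 1 (log2). Between bone 6 and bone 3 they were only 0.20, 0.20 and 0.05 apart, with the opposite sign. Cth, the cysteine-producing enzyme of transsulfuration, was dim, at 61.2 (parental), 109.6 (bone 3), 88.3 (bone 6), 148 (liver 1) and 54.8 (liver 3), with liver 1 2.31-fold above liver 3.

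Both sub-lines were then compared from early to final passage, a comparison in which the bone and the liver pair share no array. Of the 18 amino acid stress genes, 13 were lower at the final passage in both sub-lines and 0 were higher in both, where 27.6% of all genes were lower in both. The bone differences were the smaller ones: the median of bone 6 against bone 3 was -0.23, with 13 lower and 5 higher (55.6% of all genes were lower), and 1 gene, Trib3, was at least 2-fold lower (-1.16 on the log2 scale; 2.07% of all genes). After Trib3 the largest bone differences were -0.74 for Ddit3, -0.66 for Chac1, -0.59 for Stc2 and -0.57 for Ppp1r15a. The 5 genes that were lower at the final passage in liver and higher in bone were Atf4, Psat1, Shmt2, Mthfd2 and Aldh18a1. These directions are those of the chosen probe sets. In bone, some other probe sets of Atf4, Shmt2 and Aldh18a1 had the opposite sign. Phgdh, among the 13, was at -0.13 in bone, while its other probe sets gave 0.22, 0.22 and 0.05. With 7 ER genes, 12 of the 38 members (31.6%) had opposite directions in the sub-lines, against 47.8% of all genes.

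A limma fit of final against early passage with the line kept as a term, added after the values were seen, called 0 of the 38 members and 0 of all 12609 genes at an adjusted p under 0.05. Its smallest member adjusted p was 0.430, for Trib3 (-1.68 ± 0.28 on the log2 scale, SE over 2 arrays a stage). The next 2 by size were Chac1 (-1.09 ± 0.26; limma adjusted p = 0.467) and Stc2 (-1.09 ± 0.27; limma adjusted p = 0.483). At an unadjusted p under 0.05 the fit had 8 members, against 6.84% of all genes, and all 8 were amino acid stress genes: Trib3, Chac1, Ddit3, Sesn2, Ppp1r15a, Cth, Stc2 and Nupr1. The stages differ in passage number between the lines, so they are not matched in time.

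**Figure D3:**
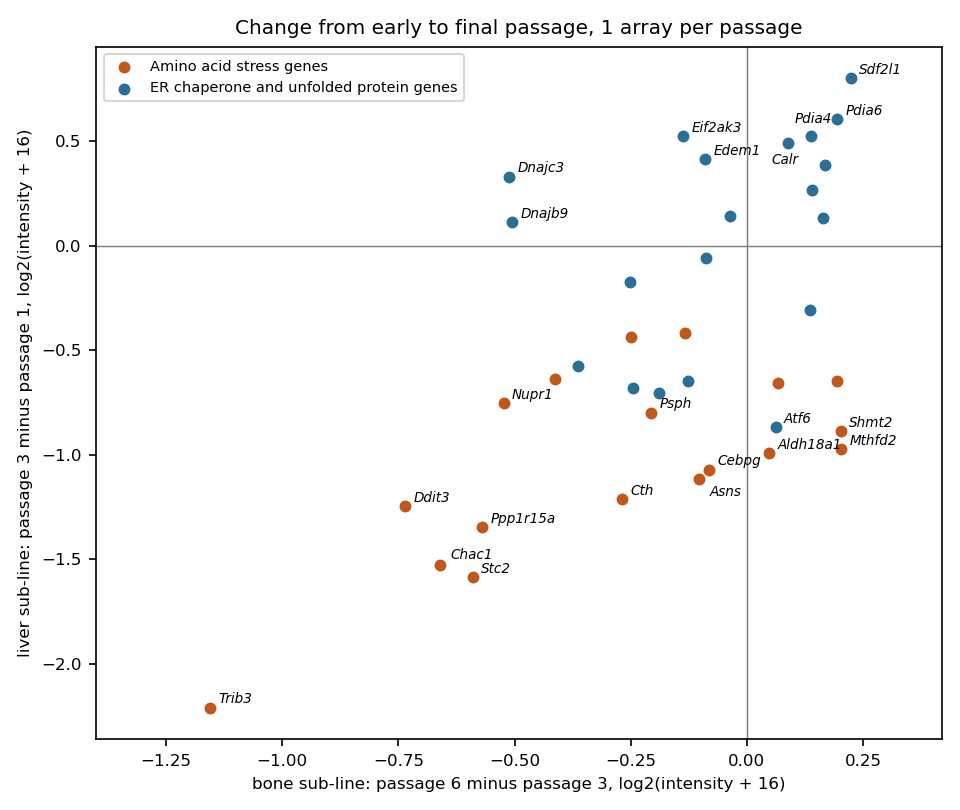
Difference between final and early passage on the log2(intensity + 16) scale in the bone sub-line (horizontal) and the liver sub-line (vertical), 1 point per tested member. All 18 amino acid stress genes (orange) lie below 0 on the vertical axis, with Trib3 at -1.16 and -2.21, and ER genes (blue) lie on both sides.

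The ER genes did not follow the amino acid stress genes. Liver 1, the array with the highest values for 13 of 18 amino acid stress genes, had the lowest value for 8 of the 20 ER genes (background 23.8%) and for 0 of the 18. Those 8 were Hsp90b1, Sdf2l1, Pdia3, Pdia4, Pdia6, Calr, Creld2 and Eif2ak3. Narrow gaps to the parental cells are among them, for Creld2 (304.6 in liver 1, 306.7 in parental cells), Pdia3 (3056.8 and 3111.6) and Eif2ak3 (247.4 and 255). Bone 6 had the highest value for 8 ER genes (background 17.2%), namely Hspa5, Hsp90b1, Sdf2l1, Pdia4, Pdia6, Calr, Creld2 and Manf, and for 0 amino acid stress genes. From early to final passage 7 ER genes were higher in both sub-lines (background 24.2%), and 6 were lower in both (background 27.6%).

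The lumenal chaperones had high intensities. Hspa5, the chaperone BiP that holds the sensors inactive, read 4392 in the parental cells, 5309 and 5833 in bone 3 and bone 6, and 5308 and 4281 in liver 1 and liver 3. Other Hspa5 probe sets were highest in liver 1 (3416) and in bone 3 (538). Hsp90b1 (GRP94) was between 2809 (liver 1) and 3568 (bone 6). Calr, the lectin chaperone calreticulin, gave 3388 (parental), 4263 (bone 3), 4532 (bone 6), 2799 (liver 1) and 3944 (liver 3), with both bone arrays above all others. Hyou1, which recharges BiP with ATP, read 1287 in the parental cells, 645 and 606 in bone 3 and bone 6, and 639 and 613 in liver 1 and liver 3. By this probe set, though not by the gene's others, the parental array stood alone about 2-fold above the other 4.

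Among the disulfide isomerases, Pdia4 gave 423 in the parental cells, 597 and 658 in bone 3 and bone 6, and 306 and 447 in liver 1 and liver 3 and Pdia6 gave 1316 (parental), 1427 (bone 3), 1635 (bone 6), 817 (liver 1) and 1251 (liver 3). In both, liver 1 was lowest and bone 6 highest, and both bone arrays were above both liver arrays. Pdia3 had the same line order within a narrower range, 3057 to 3605. Sdf2l1, a partner of the ER chaperone complex, read 245 in the parental cells, 416 and 488 in bone 3 and bone 6, and 176 and 318 in liver 1 and liver 3. Creld2 and Manf, small ER proteins that can be secreted, were highest in bone 6, at 493 for Creld2 and 1458 for Manf, against 307 and 1063 in the parental cells. Across the ER list, both bone arrays were above both liver arrays for 9 of 20 genes (background 21.2%) and below them for 1, Ern1 (background 25.9%). The count of 9 ran from 7 to 13 over 10 alternatives, for which no share of all genes was computed. Some of these left an array out, which makes the pattern easier to meet, so the 21.2% is not their background. Among the 9 are narrow gaps for Hspa5 (5309 in bone 3, 5308 in liver 1) and Eif2ak3 (366 in bone 6, 363 in liver 3).

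The BiP co-chaperones were above the parental value on all 4 sub-line arrays, narrowly so for Dnajb9 in bone 6. Dnajc3, which also inhibits the eIF2-alpha kinase PERK, read 522 (parental), 1169.7 (bone 3), 815 (bone 6), 820.5 (liver 1) and 1036 (liver 3). Dnajb9 read 439.5 in the parental cells, 643 and 449 in bone 3 and bone 6, and 544 and 589.6 in liver 1 and liver 3. All 4 sub-line arrays were above the parental array for 6 ER genes (Xbp1, Dnajb9, Dnajc3, Edem1, Manf and Atf6; background 17.6%) and below it for 1, Hyou1 (background 18.1%). Other probe sets of Edem1 and Hyou1 did not hold these patterns. In liver 1 a second set of Edem1 was below the parental cells (237.7 against 260.5) and another of Hyou1 above them (196.3 against 181.1). The list medians against the parental array were 0.29 and 0.38 for bone 3 and bone 6, and -0.0024 and 0.20 for liver 1 and liver 3. For the amino acid stress genes they were -0.26 and -0.38 for the bone arrays, and 0.47 and -0.64 for the liver arrays. All genes tested had medians between -0.044 and 0.013 in these pairs. These comparisons share the parental array.

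**Figure D4:**
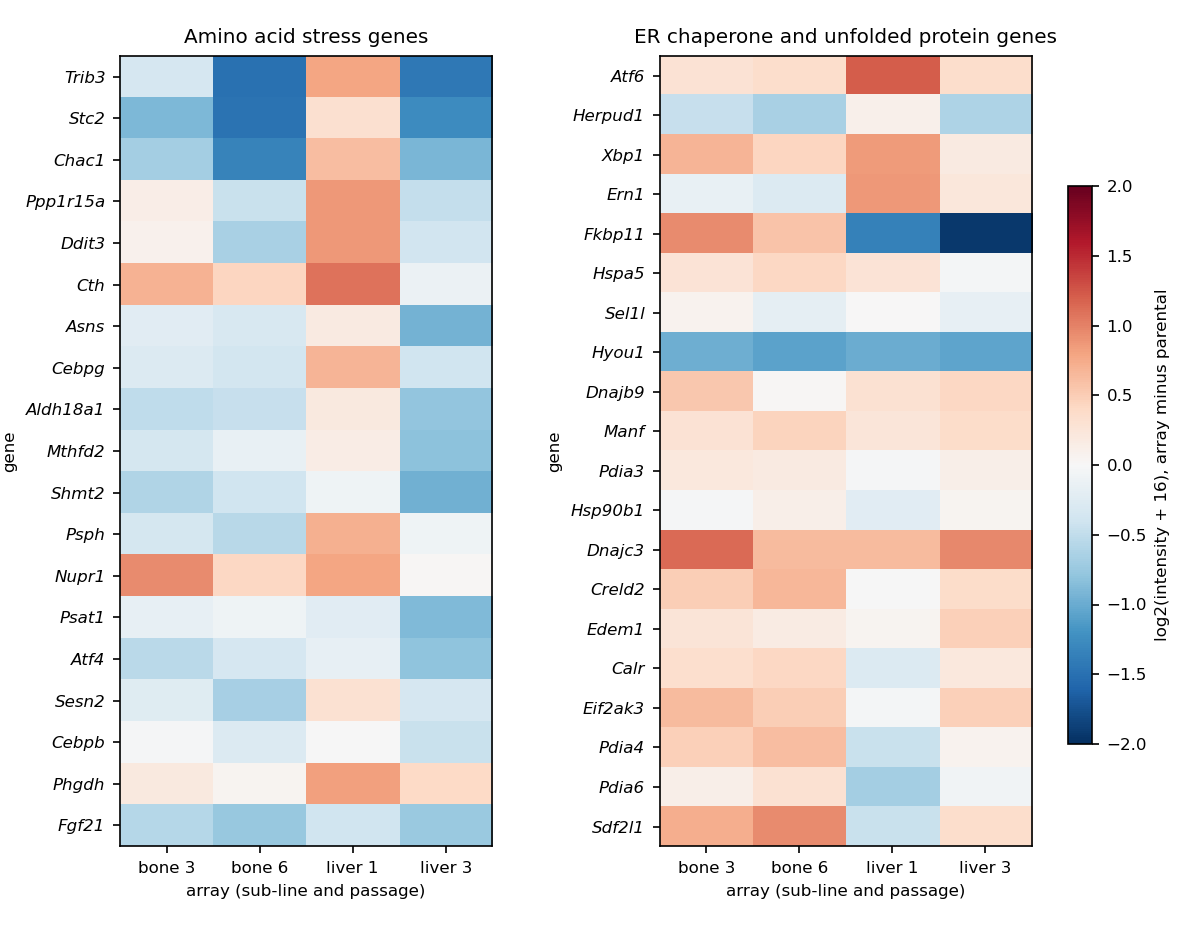
Difference of each sub-line array from the parental array, log2(intensity + 16) scale, for the 19 amino acid stress genes (left, Fgf21 included although below the filter) and the 20 ER genes (right), sorted by liver 1 minus liver 3. Red is higher and blue lower than parental; the liver 1 column is red for most amino acid stress genes and the bone columns are red for most ER genes.

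The sensors and their targets did not share an order. Atf6 gave 181 in the parental cells, 226 and 237 in bone 3 and bone 6, and 443 and 236 in liver 1 and liver 3, and Ern1, the sensor that splices Xbp1 mRNA, gave 175 (parental), 157 (bone 3), 143 (bone 6), 333 (liver 1) and 207 (liver 3). Both were highest in liver 1, as was Xbp1, at 1527 in the parental cells, 2450.4 and 2067 in bone 3 and bone 6, and 2778 and 1728 in liver 1 and liver 3. Eif2ak3, the PERK kinase that phosphorylates eIF2-alpha, was instead lowest there, narrowly under the parental cells. It read 255 (parental), 404 (bone 3), 366 (bone 6), 247 (liver 1) and 363 (liver 3).

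Among degradation genes, Herpud1 had the order of the amino acid stress genes, at 737 in the parental cells, 532 and 465 in bone 3 and bone 6, and 787 and 477 in liver 1 and liver 3. Edem1, which extracts misfolded glycoproteins from folding, was between 329 and 464 and highest in liver 3, the only member with that order. Sel1l, the scaffold of the HRD1 ubiquitin ligase, differed little, between 489 and 586. Liver 3 minus liver 1 was -0.71 for Herpud1, -0.17 for Sel1l and 0.41 for Edem1 on the log2 scale.

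Bone and liver sub-lines were set against each other over their passages, to see which members separate the lines. Of the 38 members 1 was called by limma at an adjusted p under 0.05, where 0.190% of all genes were called. This was Fkbp11, a prolyl isomerase of the secretory pathway, with intensities of 56.4 in the parental cells, 123 and 92 in bone 3 and bone 6, and 12.3 and 3 in liver 1 and liver 3. It was 5.28-fold higher in bone than in liver (2.40 ± 0.26 on the log2 scale, SE over 2 arrays a line; limma adjusted p = 0.0452). Both liver values are under the filter level of 25.1 and near background, so the fold rests on dim values. The limma adjusted p ranged from 0.00497 to 0.211 over 12 alternative settings and was above 0.05 in 6 of them, among them without liver 1 (0.187) and without liver 3 (0.149). A limma fit that blocked on stage also called Fkbp11 alone among the members, and 1.28% of all genes.

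At an unadjusted p under 0.05 limma had 5 members for bone against liver, against 14.1% of all genes. Besides Fkbp11 these were Sdf2l1 (log2 difference 0.88 ± 0.29; limma adjusted p = 0.268), Pdia4 (0.74 ± 0.23; limma adjusted p = 0.252), Ern1 (-0.75 ± 0.26; limma adjusted p = 0.279) and Psph (-0.76 ± 0.29; limma adjusted p = 0.328). The median over the 18 amino acid stress genes was -0.27, with 10 lower and 8 higher in bone (47.3% of all genes were higher). That median rests on liver 1: without that array it was 0.32. The median over the 20 ER genes was 0.11, with 14 higher and 6 lower.

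Both bone arrays lay on one side of the parental array and both liver arrays on the other for 3 of the 38 members, Pdia6, Ern1 and Fkbp11 (7.89%, against 13.6% of all genes). Bone against parental cells gave 0 called members by limma, where 0.135% of all genes were called, and liver against parental cells also gave 0, where 0.0159% were called. At an unadjusted p under 0.05 limma had 2 members for bone (8.17% of all genes), Hyou1 and Dnajc3, and 3 for liver (7.49% of all genes), Hyou1, Dnajc3 and Fkbp11. For Hyou1 the difference from the parental array was -1.02 ± 0.22 in bone (limma adjusted p = 0.240) and -1.02 ± 0.22 in liver (limma adjusted p = 0.300), and both use the same parental value. For Dnajc3 it was 0.88 ± 0.30 in bone (limma adjusted p = 0.490) and 0.80 ± 0.30 in liver (limma adjusted p = 0.625).

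In single pairs of arrays, at least 2-fold differences from the parental cells were few, and these pairs have no test. Bone 3 had 1 such member (Dnajc3; 4.36% of all genes), bone 6 had 4 (Trib3, Stc2, Chac1 and Hyou1, all lower; 4.64%), liver 1 had 3 (Atf6 and Cth higher, Fkbp11 lower; 4.53%), and liver 3 had 4 (Fkbp11, Trib3, Stc2 and Hyou1, all lower; 3.89%). At the shared passage number, bone 3 against liver 3, 2 members were at least 2-fold apart (4.59% of all genes), Fkbp11 by 2.87 and Trib3 by 1.09 on the log2 scale, both higher in bone 3.

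A further 4 lists of the same pathways, none of whose genes is a member, were read the same way. These lists too were chosen with earlier results of these data known, so they are not independent support. limma called 0 genes of them in each of the 3 line comparisons. Of all genes, 0.190% were called for bone against liver, 0.135% for bone against parental and 0.0159% for liver against parental, so 0 is near the background. Of 19 other ATF4 pathway genes 17 were lower in liver 3 than in liver 1 (47.5% of all genes), with a median of -0.33, and 4 were at least 2-fold lower (1.13% of all genes). These were Gadd45a (-1.69), Aldh1l2 (-1.59), Gpt2 (-1.20) and Atf3 (-1.09). Aldh1l2, a mitochondrial folate enzyme, was highest in liver 1, at 203 (parental), 496 (bone 3), 282 (bone 6), 1035 (liver 1) and 333 (liver 3). Liver 1 was the highest array for 13 of the 19 (24.8% of all genes). Impact, an inhibitor of the eIF2-alpha kinase GCN2, was highest in liver 3 instead, 1.46 above parental cells and with bone 3 at -1.01 against liver 3 (log2).

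Of 10 amino acid transporters under ATF4, 9 were lower in liver 3 than in liver 1 (47.5% of all genes; median -0.65), with the cystine importer Slc7a11 at -1.30, and 1 was higher, Slc43a1 (1.20, from dim values of 5.0 in liver 1 and 32.1 in liver 3). Of 19 cytosolic aminoacyl-tRNA synthetases, the enzymes that charge tRNAs, 18 were lower (47.5% of all genes; median -0.55), with Wars at -1.29 and Tars at -1.10. Wars read 1448 in the parental cells, 947 and 969 in bone 3 and bone 6, and 1721 and 692 in liver 1 and liver 3. In the bone pair the synthetases did not share this direction, with 13 higher and 6 lower (44.2% of all genes were higher) and a median of 0.075. The neutral amino acid transporter Slc1a4 was 2-fold lower in bone 6 than in parental cells (-1.01). Of 38 other ER folding and degradation genes, 23 were higher and 15 lower in liver 3 than in liver 1 (52.3% of all genes were higher; median 0.11), and only Sec61b, a subunit of the translocon, was 2-fold apart (1.04).

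Marker lists of other cell types were read beside the liver 1 values. Macrophage markers had a median of 1.24 above parental on liver 1 (log2, 6 of 9 markers tested, all 6 above the filter level) and of 0.72 on liver 3, with Lyz2 at 25.5 in parental cells, 140 in liver 1 and 42.2 in liver 3, Cd68 at 52.1, 173 and 172, and Csf1r at 67.6, 169 and 220. Cd14 had the opposite order, lowest in liver 1 at 212 and highest in bone 6 at 928, against 336 in parental cells. Of the 6 markers 1 (Cd14) was below the parental value on liver 1, and 2 (Cd14 and Adgre1) were on liver 3. Between liver 3 and liver 1 the differences were -1.43 for Lyz2, -0.01 for Cd68 and 0.35 for Csf1r, beside -2.21 for Trib3. Fibroblast markers summed to 391 in liver 1 and 416 in liver 3 against 267 in parental cells, and to 239 and 160.0 in bone 3 and bone 6. Endothelial markers summed to 131 to 292, with parental cells highest. In a bulk sample fewer cells of a type and less RNA per cell cannot be told apart, and the part of other cell types, and of the Gapdh ratio, in the liver 1 values was not tested.

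Where a gene had several probe sets, they mostly gave the same direction. Of 49 other probe sets above the filter, from 27 members, 45 had the sign of the chosen one for liver 3 against liver 1. These were 21 of 22 for amino acid stress genes and 24 of 27 for ER genes. The sign held for 41 in bone against liver. For bone 6 against bone 3 it held for only 33, 14 of 22 for amino acid stress genes and 19 of 27 for ER genes. There the exceptions were probe sets of Aldh18a1, Atf4, Phgdh, Shmt2, Atf6, Edem1, Ern1, Hspa5, Hyou1 and Pdia3. For liver 3 against liver 1 the exceptions were 1 probe set each of Aldh18a1 (0.20 against -0.99 for the chosen one), Ern1, Fkbp11 and Hspa5, and that of Ern1 was dim, at most 29.7. For bone against liver they were 2 of Shmt2 and 1 each of Aldh18a1, Atf4, Edem1, Ern1, Pdia3 and Xbp1. Against the parental array Hyou1 stood out: its other probe sets read 181, 167, 169, 196 and 170.5, and 37.9, 51.5, 51.4, 55.3 and 53.7, in the order parental, bone 3, bone 6, liver 1 and liver 3. Neither holds the parental excess of the chosen set. Fkbp11 had 2 dimmer probe sets whose bone minus liver differences were 0.26 and 0.16, against 2.40 for the called one. The chosen sets of both genes carry the array maker's mark for probes that match more than one transcript (s_at). Herpud1 had a steeper second probe set, at 815 (parental), 323 (bone 3), 295 (bone 6), 899.7 (liver 1) and 296 (liver 3), and that of Edem1 was highest in bone 6, at 566.

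**Figure D5:**
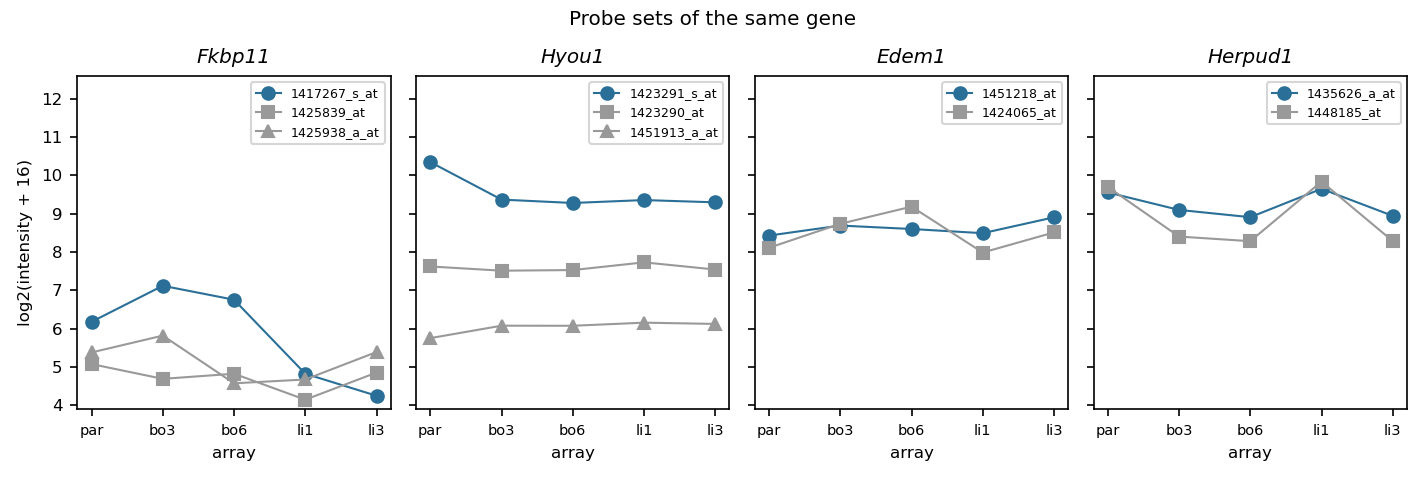
Values of log2(intensity + 16) on the parental (par), bone 3 (bo3), bone 6 (bo6), liver 1 (li1) and liver 3 (li3) arrays for every probe set of Fkbp11, Hyou1, Edem1 and Herpud1; blue circles are the probe set that stood for the gene. The grey lines of Hyou1 lack the parental peak, and both lines of Herpud1 peak in parental cells and liver 1.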

How the data were processed

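The arrays were 1-colour Affymetrix mouse expression arrays. The authors deposited 1 linear intensity per probe set, for 45101 probe sets, and the submitters' processing notes name RMA, with no version. The values are linear, unlike RMA output, and with 2% trimmed from both ends their mean was 150 on each array. They were converted to log2(intensity + 16) with no further scaling, so fold changes of dim genes are understated. The platform annotation gave 1 gene for 34958 probe sets and several for 932, and 9211 were unlisted. Only probe sets with 1 gene were used, without the 64 controls. A gene was tested where at least 1 of its probe sets reached 25.1, the median of all values, on at least 1 array. Its probe set for the tests was chosen among those that did.

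The linear models of limma 3.58.1 (R 4.3.3; lmFit, then eBayes) were fitted to the 5 arrays with line as the group, 2 residual degrees of freedom, a prior of 4.20, and Benjamini-Hochberg adjustment over 12609 genes at 0.05. The lone parental array was taken to vary like the others. The p-values of these line fits reflect the spread between the early and final passages of a sub-line, which may be technical. The fits with stage as a term or a block used the sub-line arrays only, without the parental array. Their SEs and p-values reflect how far the early to final change differed between the sub-lines, with fewer residual degrees of freedom. The number of arrays limits every value. All 40 members were named whatever their values. From the other pathway lists, up to 4 genes per comparison were named that were called or that differed by 2-fold or more between all arrays compared. The members and lists were chosen with earlier results of these data known. The alternatives were another pseudocount, no filter, median centring, quantile normalization, averaged probe sets and a mean-variance trend in eBayes. Others were the stage as a block, other fold thresholds and each sub-line array left out.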

Additional observations from a re-analysis of the deposited data

Results flagged for a closer look

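From early to final passage, 12 of 38 members (31.6%, against 47.8% of all genes) had opposite directions in the sub-lines, a difference that was not tested because each stage of a sub-line has 1 array. By the chosen probe sets, the amino acid stress genes among them were lower at the final passage in liver and higher in bone. The liver change minus the bone change (log2) was -0.84 for Atf4, -0.73 for Psat1, -1.09 for Shmt2, -1.18 for Mthfd2 and -1.04 for Aldh18a1. Of the ER genes, Hspa5 (-0.44) and Atf6 (-0.93) had that order too. Dnajb9 (0.62), Dnajc3 (0.84), Edem1 (0.50), Pdia3 (0.18) and Eif2ak3 (0.66) had the opposite one, higher at the final passage in liver and lower in bone. For some of the 12, other probe sets had the opposite sign in bone. These were of Atf4 (-0.07), Shmt2 (-0.03 and -0.19), Aldh18a1 (-0.01 and -0.16), Hspa5 (-0.04 and -0.20), Atf6 (-0.23 and -0.25), Edem1 (0.45) and Pdia3 (0.13). Further probe sets of Shmt2 (0.29) and Aldh18a1 (0.22 and 0.05) kept the sign.

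Against the parental array, 3 members (7.89%, against 13.6% of all genes) had both bone arrays on one side and both liver arrays on the other. Bone minus liver was 0.59 for Pdia6 and 2.40 for Fkbp11, with bone above and liver below parental, and -0.75 for Ern1, with bone below and liver above. By limma, the adjusted p of bone against liver was 0.363 for Pdia6, 0.0452 for Fkbp11 and 0.279 for Ern1.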

How the results depend on the processing

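The single member called for bone against liver, Fkbp11, was called under 6 of 12 alternatives. The count was 0 with a pseudocount of 1 and with no filter, settings in which 0 of all genes were called. It was also 0 with a pseudocount of 64 (21 of all genes called) and with averaged probe sets (15 of all genes called). With a single sub-line array left out, its line has 1 array, and the Fkbp11 difference was 2.11 to 2.69. The Fkbp11 difference ranged from 1.26 (pseudocount of 64) to 3.88 (pseudocount of 1), with 1.28 for averaged probe sets. With the stage as a block the count stayed at 1, while 161 of all genes were called. Counts of 0 against the parental array held under every alternative that kept all arrays. In those, 1 to 37 of all genes were called for bone and 1 to 7 for liver. The cause of these differences was not tested.

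The amino acid stress median for bone against liver ran from -0.69 to 0.32 when single arrays were left out, and that for liver against parental from -0.64 to 0.47. The ER median for bone against liver was 0.18 with median centring, 0.030 with quantile normalization, 0.24 with averaged probe sets, and 0.079 to 0.19 when arrays were left out. For bone 6 against bone 3 it was 0.0068 with median centring and -0.030 with averaged probe sets. Between the liver passages the amino acid stress median stayed between -1.01 and -0.76 and the ER median between 0.12 and 0.16 over 6 alternatives.

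Counts of members past a fold threshold followed it. At 1.5-fold they were 11 (bone 3 against parental), 11 (bone 6), 16 (liver 1), 13 (liver 3), 4 (bone 6 against bone 3), 22 (liver 3 against liver 1) and 7 (bone 3 against liver 3), and at 3-fold 0, 0, 0, 1, 0, 1 and 1. With a pseudocount of 1, bone 3 had 2 at 2-fold, and with 64, liver 1 had 1, liver 3 had 2 and liver 3 against liver 1 had 5. The early to final fit had 15 members at an unadjusted p under 0.05 with a pseudocount of 64, and 0 called in every setting run. For these other settings no share of all genes was computed, so the counts have no background beside them. Another scaling moved the median of all genes by less than 0.1 in each pair.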
